A study of Mus musculus with 6 samples.

Results

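The genes described here encode the subunits of the proteasome. They were taken as all rows of the expression table that map to a mouse gene symbol of Psma, Psmb, Psmc or Psmd followed by a number, or to Psme1 to Psme4, leaving out the immune-type subunits Psmb8, Psmb9 and Psmb10. This gave 38 genes out of 20263 named genes, 14 of the core (Psma and Psmb), 20 of the cap (Psmc and Psmd) and 4 activators (Psme). Psma4 and Psmb5 also meet the rule and were not analysed here. Where a gene had more than 1 row, the row of highest mean over all arrays stood for it, as was the case for Psmd2 and Psmd10, and no measured difference between groups entered the choice.

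The cells were neural stem cells of CD-1 albino mouse embryos of stage E14.5, kept dividing as neurospheres, which are floating colonies of stem and progenitor cells. All of them were nucleofected, that is, transfected by an electric pulse: those of one group received a miR-128 mimic, a synthetic form of this microRNA, and those of the other received miR-Control. RNA was extracted after 72 h. There were 3 biological replicates in a group, and exon arrays, 1 for each RNA, read them. The study compared the groups to find transcripts that respond to miR-128, which these cells do not normally make, according to the design text. A mimic supplies the microRNA from outside, and every array reads a whole culture.

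The proteasome is the large barrel-shaped protease that degrades proteins tagged with ubiquitin. Its core is a stack of rings, in which outer alpha rings (Psma genes) gate the entrance and inner beta rings (Psmb genes) hold the proteolytic sites. The cap binds on the alpha ring: a base with a ring of ATPases (Psmc genes) unfolds the substrate, and a lid (most Psmd genes) removes its ubiquitin chain. Activators of the Psme family can take the place of the cap. In mammalian cells the factor Nfe2l1 raises the transcription of most subunit genes together when proteasome activity falls short, by way of antioxidant response elements in their promoters, and dividing progenitors rely on the proteasome to remove cyclins.

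The mature miR-128 sequence of the mouse, from RefSeq (GRCm38.p6), is shown because it is the agent that the groups differ in. The labels do not give the letters of the mimic itself. The capitals mark the seed, bases 2 to 8, with which a microRNA pairs to its targets.
mmu-miR-128-3p: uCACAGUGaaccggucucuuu

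Promoter windows of 4 subunit genes follow, each reaching from 250 bases before to 50 bases after the gene's start in RefSeq (GRCm38.p6). Psmb3 and Psma7 had the most negative fold changes of the core. Psmb6 encodes a catalytic subunit, and Psmd13 had the most negative fold change of the cap. Capitals mark CCAAT boxes (CCAAT, either strand) in Psmb3 and Psma7, an antioxidant response element (TGACNNNGC, either strand) in Psmb6, and an ETS motif (CCGGAAG, either strand) in Psmd13.
Psmb3, chr11:97703184-97703483, plus strand: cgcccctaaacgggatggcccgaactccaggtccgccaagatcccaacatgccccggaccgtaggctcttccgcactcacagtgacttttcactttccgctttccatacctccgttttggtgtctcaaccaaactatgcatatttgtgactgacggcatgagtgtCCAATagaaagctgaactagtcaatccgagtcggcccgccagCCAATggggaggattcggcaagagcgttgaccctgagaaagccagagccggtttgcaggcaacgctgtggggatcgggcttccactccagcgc
Psma7, chr2:180042415-180042714, minus strand: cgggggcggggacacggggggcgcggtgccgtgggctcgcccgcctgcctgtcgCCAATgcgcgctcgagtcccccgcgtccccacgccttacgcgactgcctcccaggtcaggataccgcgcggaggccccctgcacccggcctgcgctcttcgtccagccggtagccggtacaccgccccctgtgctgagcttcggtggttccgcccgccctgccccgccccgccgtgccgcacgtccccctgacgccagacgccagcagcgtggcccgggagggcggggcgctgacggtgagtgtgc
Psmb6, chr11:70525107-70525406, plus strand: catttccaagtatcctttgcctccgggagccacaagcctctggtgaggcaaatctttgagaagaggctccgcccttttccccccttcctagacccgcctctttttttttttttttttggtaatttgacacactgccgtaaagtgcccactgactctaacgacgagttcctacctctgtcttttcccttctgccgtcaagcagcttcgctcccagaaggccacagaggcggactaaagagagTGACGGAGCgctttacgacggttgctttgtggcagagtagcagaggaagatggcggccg
Psmd13, chr7:140882144-140882443, plus strand: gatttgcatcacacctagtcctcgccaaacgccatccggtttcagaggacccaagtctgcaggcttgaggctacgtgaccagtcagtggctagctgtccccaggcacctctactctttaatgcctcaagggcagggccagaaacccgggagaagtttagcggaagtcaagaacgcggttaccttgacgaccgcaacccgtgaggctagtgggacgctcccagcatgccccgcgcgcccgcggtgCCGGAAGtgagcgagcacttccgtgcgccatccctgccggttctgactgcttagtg

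The values are log2 expression values made with RMA, a method that corrects background, equalises arrays and summarises probes per row. Levels of different rows cannot be compared as amounts of RNA, so fold changes and tests are within a row. Where a row's mean is placed among all rows, this describes its signal on the array, and means over several genes are taken relative to the controls of each gene. One array, miR-Control replicate 3, lay away from the other 5, at 42.5 on the first principal component against -18.7 to -0.226, and its values had the narrowest interquartile range, 2.87 (2.98 to 3.22 in the others). Of 6 stem and progenitor markers 4 (Nes, Sox2, Vim and Fabp7) had a mean above the upper quartile of all rows and 0 lay below the median row. The 4 neuronal, 4 microglial and 3 endothelial markers all lay below the median row, as did 2 of 3 astrocyte and 2 of 4 oligodendrocyte lineage markers. Olig2, of the latter list, lay above it. A row's level depends on its probes, so these positions describe the arrays and do not measure cell numbers.

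Nearly all proteasome genes had lower values with miR-128 than with miR-Control, by small amounts, and none passed the test. Of the 38 genes 33 had a fitted log2 fold change (miR-128 minus miR-Control) below 0, or 86.8%, against 43.8% of all named genes and 49% of the 10937 named genes above the median row. By level, 33 of the 38 had a mean above the upper quartile of all rows. Shares over named genes of that level were not computed. The median log2 fold change was -0.13 over the 38 genes and 0.02 over all named genes, and the members ranged from -0.77 for Psmb3 to 0.15 for Psme4. The 5 genes that were not lower were the ATPase Psmc6, the lid subunit Psmd11 and the activators Psme1, Psme3 and Psme4. In RNA from whole cultures, fewer cells of a type and less RNA per cell cannot be told apart.

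**Figure D1:**
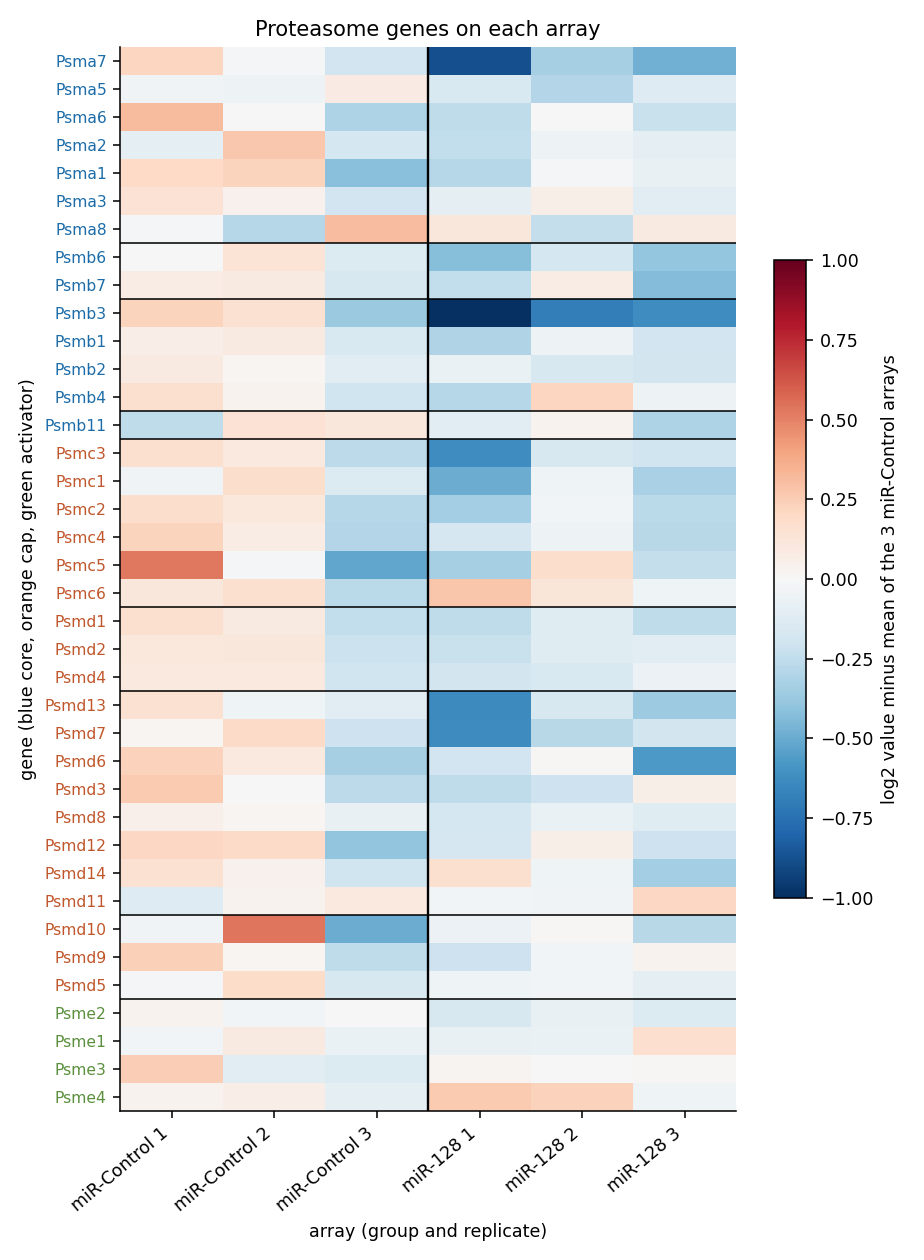
Log2 value of each of the 38 proteasome genes (y axis, blue names core, orange cap, green activators) on each of the 6 arrays (x axis), as the difference from the mean of the 3 miR-Control arrays of the same gene (colour). Psmb3 and Psma7 are the darkest rows on the miR-128 side, and miR-Control replicate 3 is blue for most genes. That array is the lowest of all 6 in 14 of the 38 (36.8%), and in 3672 of the 10937 named genes above the median row.

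By limma, fitted over all 32025 rows with Benjamini-Hochberg adjustment over all of them, 0 proteasome genes and 0 rows in all (0%) reached an adjusted p of 0.05. The lowest adjusted p among the members was 0.386, for Psmb3. At an unadjusted p under 0.05, 5 members were lower (Psmb3, Psma7, Psmb6, Psmd13 and Psmd7), or 13.2%, and 0 were higher, where 3.39% of named genes were lower and 3.74% higher at that p. Among named genes above the median row the share that was lower at that p was 5.15%. Each of the 3 miR-128 values was under the lowest control value in 6 members (15.8%), namely Psmb3, Psma7, Psma5, Psmb6, Psmd13 and Psme2, against 5.27% of named genes and 7.61% of those above the median row. The reverse order was seen in 0 members, against 6.87% of named genes. The 95% interval of the fold change included 0 in 33 of the 38.

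**Figure D2:**
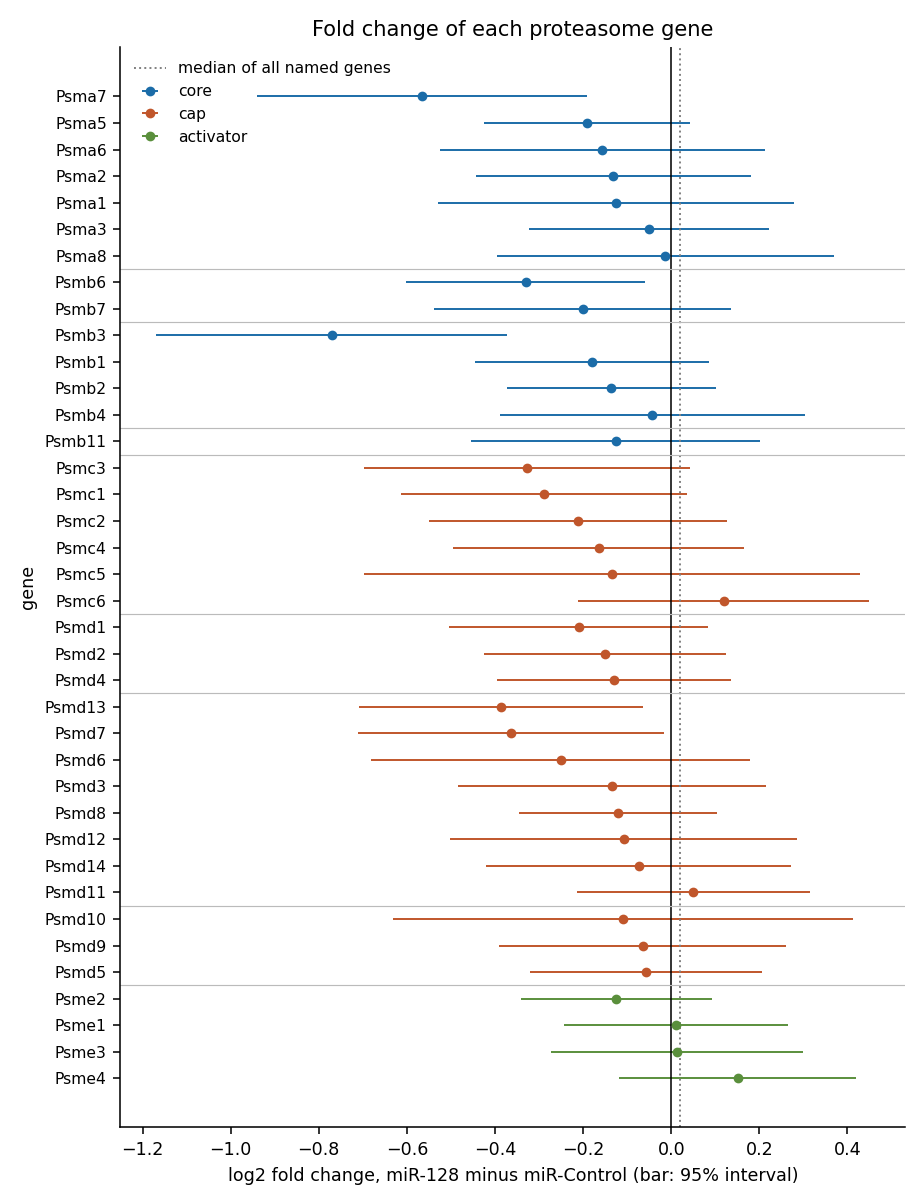
Fitted log2 fold change, miR-128 minus miR-Control (x axis, points), with limma's 95% interval (bars) for each of the 38 proteasome genes (y axis), grouped by role and coloured by core, cap and activator. The intervals of Psmb3, Psma7, Psmb6, Psmd13 and Psmd7 lie below 0, those of the other 33 include 0, and the dotted line is the median of all named genes (0.02).

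The beta rings of the core held the gene with the most negative value. Psmb3, a beta subunit without a proteolytic site of its own, had log2 values of 11.77, 11.70 and 11.18 in control arrays 1 to 3, and 10.55, 10.85 and 10.93 in miR-128 arrays 1 to 3. The miR-128 arrays were all below the controls, and miR-Control replicate 3 was the control nearest to them. The log2 fold change was -0.77 (SE 0.18, 95% interval -1.17 to -0.37), a 1.71-fold lower level, with a limma adjusted p of 0.386, and by unadjusted p Psmb3 ranked 110 among the 20263 named genes. Without miR-Control replicate 3 it was -0.96 (adjusted p = 0.242).

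The other structural beta subunits differed by less. Psmb1 was at -0.18 (SE 0.12, adjusted p = 0.852) and Psmb2 at -0.14 (SE 0.10, adjusted p = 0.898), and in both the lowest control overlapped the miR-128 arrays. Psmb4 was the least negative of the group. Over these 4 genes the median log2 fold change was -0.16.

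Of the catalytic beta subunits, Psmb6 carries the caspase-like site and Psmb7 the trypsin-like site. Psmb6 had log2 values of 11.45, 11.59 and 11.32 in control arrays 1 to 3, and 11.03, 11.28 and 11.07 in miR-128 arrays 1 to 3. Its groups did not overlap, and its log2 fold change was -0.33 (SE 0.12, 95% interval -0.60 to -0.06, adjusted p = 0.611). Psmb7 had 12.03, 12.04 and 11.79 in control arrays 1 to 3, and 11.71, 12.03 and 11.52 in miR-128 arrays 1 to 3. Here miR-128 replicate 2 lay at the level of the first 2 controls while the other miR-128 arrays were below all controls, and the log2 fold change was -0.20 (SE 0.15, adjusted p = 0.891). Leaving out miR-128 replicate 2 gave -0.34, and leaving out replicate 3 gave -8.38e-02. Psmb11, the beta subunit restricted to thymic cortical epithelium, was at 6.08 ± 0.22 in the control group and 5.95 ± 0.17 in the miR-128 group (SD, n = 3), and Psma8, an alpha subunit of the testis, at 5.89 ± 0.30 and 5.87 ± 0.20. These 2 and Psma5 were the members whose mean lay below the median row. Whether any of them, Psma5 included, was above background is unknown, since no detection measure was used.

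Among the alpha ring genes, which form the gate of the barrel and the docking face for the cap, Psma7 was the most negative. Its log2 values were 10.27, 10.03 and 9.86 in control arrays 1 to 3, and 9.17, 9.72 and 9.57 in miR-128 arrays 1 to 3. All miR-128 arrays were below all controls, and miR-128 replicate 1 was the lowest. The log2 fold change was -0.57 (SE 0.16, 95% interval -0.94 to -0.19), a 1.48-fold lower level, with a limma adjusted p of 0.488. Psma7 and Psmb3 were the only 2 of the 38 with a fold change beyond 0.5 on the log2 scale in either direction.

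Psma5, another alpha subunit, had log2 values of 6.74, 6.72 and 6.85 in control arrays 1 to 3, and 6.62, 6.48 and 6.64 in miR-128 arrays 1 to 3. The groups did not overlap, but the difference was small, at -0.19 (SE 0.10, adjusted p = 0.781). Psma6 was at -0.16 (SE 0.16, adjusted p = 0.941), and without miR-Control replicate 1 its difference disappeared (0.000868). All 7 measured alpha genes had a negative fold change, with a median of -0.13. The value of Psma8, -0.01, turned to 0.14 without miR-Control replicate 3.

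In the base of the cap, the ring of 6 ATPases that unfolds substrates had 5 members lower and 1 higher, with a median log2 fold change of -0.19. Psmc3 had log2 values of 10.20, 10.14 and 9.78 in control arrays 1 to 3, and 9.42, 9.87 and 9.84 in miR-128 arrays 1 to 3. Its miR-128 replicate 1 was far below the rest, and the other miR-128 arrays lay just above miR-Control replicate 3. Its log2 fold change was -0.33 (SE 0.16, adjusted p = 0.746). Psmc1 was at -0.29 (SE 0.14, adjusted p = 0.745) and Psmc2 at -0.21 (SE 0.15, adjusted p = 0.88). Psmc6, singled out after its values were seen because it was the ATPase on the other side of 0, was at 0.12 (SE 0.15, adjusted p = 0.954) and at -0.02 without miR-Control replicate 3.

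Psmc5, also singled out afterwards, varied more among the controls than between the groups. It had log2 values of 11.20, 10.66 and 10.15 in control arrays 1 to 3, and 10.33, 10.84 and 10.43 in miR-128 arrays 1 to 3. The controls spanned 1.04 on the log2 scale, and the log2 fold change of -0.13 (SE 0.25, adjusted p = 0.98) was within that spread.

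The large base scaffold subunits Psmd1 and Psmd2, and Psmd4, a ubiquitin receptor of the base, differed by similar amounts. Psmd1 was at -0.21 (SE 0.13, adjusted p = 0.831), Psmd2 at -0.15 (SE 0.12, adjusted p = 0.913) and Psmd4 at -0.13 (SE 0.12, adjusted p = 0.928). A further row for Psmd2 gave -0.16. Psmd1 had log2 values of 12.09, 12.02 and 11.68 in control arrays 1 to 3, and 11.68, 11.80 and 11.67 in miR-128 arrays 1 to 3. In this gene miR-Control replicate 3 sat at the level of the miR-128 arrays and the other controls were above all of them, and the same order held in Psmd2 and Psmd4.

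The lid, whose subunits surround the deubiquitinase Psmd14, had 7 of 8 members lower, with a median of -0.13. Psmd13, a structural lid subunit, had log2 values of 10.19, 9.99 and 9.93 in control arrays 1 to 3, and 9.40, 9.88 and 9.67 in miR-128 arrays 1 to 3. Its groups did not overlap, and the log2 fold change was -0.39 (SE 0.14, 95% interval -0.71 to -0.06, adjusted p = 0.624). Psmd7, the partner of Psmd14 in the deubiquitinating pair, had 11.20, 11.37 and 10.97 in control arrays 1 to 3, and 10.55, 10.90 and 10.99 in miR-128 arrays 1 to 3. Only miR-128 replicate 3 overlapped the controls in Psmd7, and the log2 fold change was -0.36 (SE 0.15, 95% interval -0.71 to -0.02, adjusted p = 0.677).

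Psmd6 was at -0.25 (SE 0.19, adjusted p = 0.896), with miR-128 replicate 3 lowest. Without that array it was -8.85e-02, and without miR-Control replicate 3 it was -0.42. The remaining lid genes lay between -0.13 and 0.05. The upper end of that range was Psmd11, a lid subunit described here because it was the member of the lid not lower, with 11.67, 11.83 and 11.89 in control arrays 1 to 3, and 11.77, 11.77 and 12.01 in miR-128 arrays 1 to 3.

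Psmd5, Psmd9 and Psmd10 encode chaperones that help to assemble the base and leave the finished particle. Their log2 fold changes were -0.06, -0.06 and -0.11 (SE 0.12, 0.14 and 0.23), all with a limma adjusted p of 0.984 or above. Psmd10 had log2 values of 9.91, 10.48 and 9.45 in control arrays 1 to 3, and 9.89, 9.96 and 9.67 in miR-128 arrays 1 to 3. Its controls alone spanned 1.03, with replicate 2 highest and replicate 3 lowest of all 6 arrays, and its sign turned to 0.16 without miR-Control replicate 2. The second row of Psmd10 gave -0.09.

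Of the 4 activators 1 was lower and 3 were at or above 0, with a median log2 fold change of 0.01. Psme4, a nuclear activator, had log2 values of 10.59, 10.63 and 10.46 in control arrays 1 to 3, and 10.82, 10.79 and 10.52 in miR-128 arrays 1 to 3, a log2 fold change of 0.15 (SE 0.12, 95% interval -0.12 to 0.42, adjusted p = 0.908), with miR-128 replicate 3 among the controls. Psme2, which with Psme1 forms an activator induced by interferon, had 8.91, 8.85 and 8.87 in control arrays 1 to 3, and 8.71, 8.80 and 8.74 in miR-128 arrays 1 to 3. Its groups did not overlap, with a fold change of -0.13 (SE 0.10, adjusted p = 0.899). Psme1 was at 0.01 (SE 0.11, adjusted p = 0.997) and the nuclear Psme3 at 0.01 (SE 0.13, adjusted p = 0.997), and both turned negative with each array centred on its own median.

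Core and cap were then set against each other on each array. Relative to the mean of the controls, the mean of the 14 core genes was 0.08, 0.06 and -0.14 in control arrays 1 to 3, and -0.30, -0.12 and -0.23 in miR-128 arrays 1 to 3. The 20 cap genes had 0.13, 0.11 and -0.24 in control arrays 1 to 3, and -0.23, -0.06 and -0.18 in miR-128 arrays 1 to 3. In the cap miR-Control replicate 3 was the lowest of the 6 arrays, and in the core it lay between miR-128 replicates 2 and 3. For neither did the groups separate. The difference of the array means between groups was -0.22 in the core, where the SD over arrays was 0.12 in controls and 0.09 with miR-128, and -0.16 in the cap, with SDs of 0.21 and 0.09 (n = 3 each).

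Core minus cap, taken array by array, was -0.06, -0.05 and 0.11 in control arrays 1 to 3, and -0.07, -0.06 and -0.05 in miR-128 arrays 1 to 3. The miR-128 arrays and miR-Control replicates 1 and 2 were thus alike, and miR-Control replicate 3 lay apart from them. The values are relative to the mean of the controls, so those of the controls sum to 0 and their signs give no order of core and cap levels. The difference between groups in core minus cap was -0.06, smaller in size than the control SD of 0.09, and without miR-Control replicate 3 the core minus cap difference was -6.93e-03. The median log2 fold changes were -0.15 for the core, with all 14 genes lower, and -0.13 for the cap, with 18 of 20 lower. The core mean was more negative than its median, and Psmb3 and Psma7 were the 2 outlying core genes in the plot of fold changes. No p is given for these means, since the genes were chosen with results of these arrays known.

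**Figure D3:**
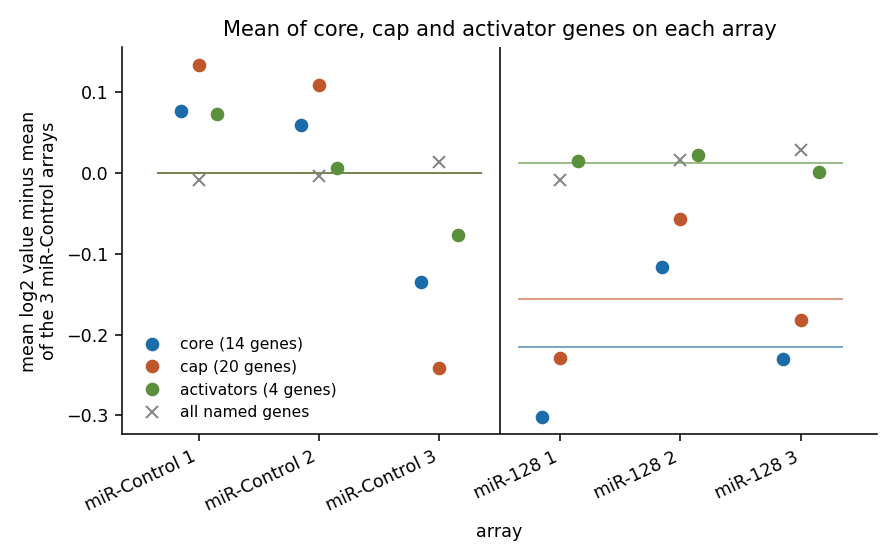
Mean log2 value of the 14 core, 20 cap and 4 activator genes and of all named genes on each array (x axis), as the difference from the mean of the 3 miR-Control arrays (y axis), with lines at the group means. The cap mean of miR-Control replicate 3 (-0.24) lies below all 3 miR-128 arrays, and its core mean (-0.14) lies below that of miR-128 replicate 2 (-0.12).

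**Figure D4:**
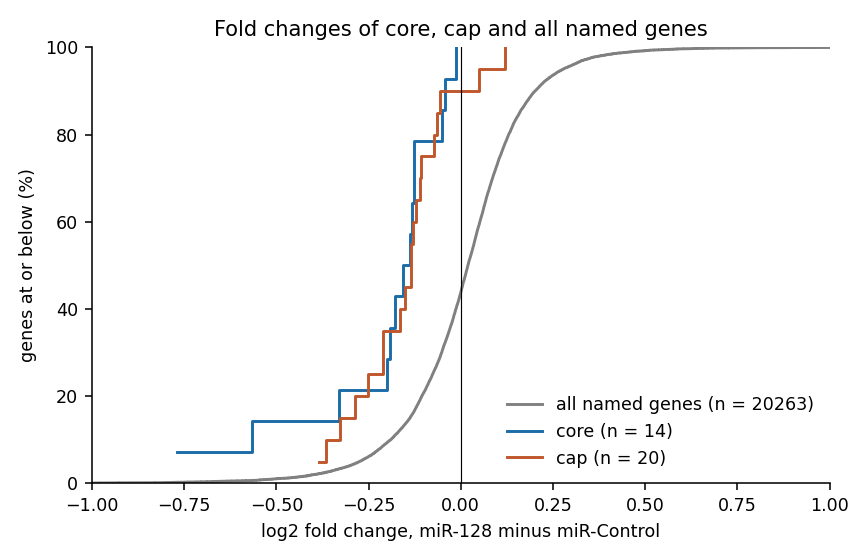
Share of genes (y axis, percent) with a log2 fold change at or below the value on the x axis, for all 20263 named genes, the 14 core genes and the 20 cap genes. The core and cap curves lie to the left of all named genes, with medians of -0.15 and -0.13 against 0.02, and they run close together except for Psmb3 and Psma7 at the left end of the core.

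The size of the proteasome differences depended on miR-Control replicate 3, the array that stood apart. It was the lowest of the 3 controls in 33 of the 38 members (86.8%), against 36.6% of all named genes and 56.1% of named genes above the median row, to which 35 of the 38 belong. The share was thus larger among genes of higher level. Most members lay higher still, with 33 of the 38 above the upper quartile of all rows. No share was computed at that level, so the 86.8% has no comparison matched for level. That array lay below the mean of the miR-128 arrays in 22 members (57.9%), a share between the 48.8% of all named genes and the 62.4% of those above the median row, so this count does not set the members apart. Without it, 35 of 38 members were lower (against 41% of named genes), and the median log2 fold change was -0.24 for the core and -0.31 for the cap, beside 0.04 over all named genes. At an unadjusted limma p under 0.05, 16 members were lower, 11 of them in the cap, against 6.72% of named genes, and all miR-128 arrays lay below both remaining controls in 21 of 38 (55.3%, against 13.6% of named genes). These shares are over named genes of every level. Shares without that array among named genes above the median row were not computed. Still no member reached an adjusted p of 0.05 (lowest 0.242, with 0% of rows called). The part of that array's own quality in these differences was not tested. The count of members lower at an unadjusted p under 0.05, 5 with all arrays, came to 3 when either miR-Control replicate 1 or 2 was left out, where 3.3% and 2.48% of named genes were lower at that p. It came to 2, 6 and 4 when miR-128 replicate 1, 2 or 3 was left out, where the shares of named genes were 1.67%, 3.31% and 2.7%.

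Of the 29 proteasome genes with full statistics, 22 had a fold change that moved by over 1.5 times, or changed sign, when 1 of the 6 arrays was left out. The other 7 were Psmb3, Psma7, Psma5, Psmb6, Psmb1, Psmd13 and Psme2. The 22 include Psma8, Psmc5, Psmc6, Psmd11 and Psme1, which were singled out after their values were seen and which all changed sign. The count thus depends on which genes were chosen, and no share over all named genes is given for it.

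**Figure D5:**
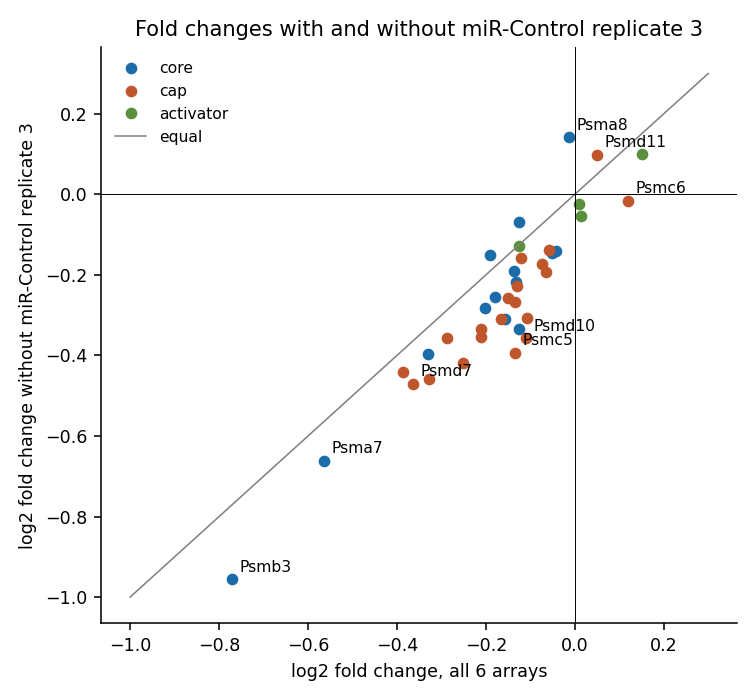
Log2 fold change of each of the 38 proteasome genes with all 6 arrays (x axis) and without miR-Control replicate 3 (y axis), coloured by core, cap and activator, with the line of equality. Most points lie below the line: 34 of 38 genes had a more negative value without that array, with Psmb3 at -0.96 and Psma7 at -0.66, while Psma8 and Psmd11 are among the 4 that did not.

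The median SD over members was 0.20 in controls and 0.14 with miR-128. The control SD was the larger in 24 of 38 genes (63.2%), near the 67.6% of all named genes, so the wider spread of the controls was shared by the arrays as a whole. The lowest array of a member was miR-128 replicate 1 in 15 genes, miR-Control replicate 3 in 14, miR-128 replicate 3 in 6, miR-128 replicate 2 in 1 and another control in 2. Of the 10937 named genes above the median row, miR-128 replicate 1 was lowest in 1728 and miR-Control replicate 3 in 3672. The highest was a miR-Control array in 32 of 38 genes, against 58% of named genes.

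Promoter windows were at hand for 31 of the 38 genes, 10 core, 17 cap and 4 activators. The ETS motif CCGGAAG was in those of 12 members (38.7%), against 8.86% of all 32851 windows, and it was in 9 cap genes but in 1 core gene (Psma6). CCAAT, the letters bound by the factor NF-Y, was in 13 members (41.9%), against 37.4% of all windows, with 7 core genes, 5 cap genes and 1 activator. The antioxidant response element TGACNNNGC was in 5 members (Psmb6, Psmc6, Psmd9, Psmd12 and Psme4), or 16.1%, against 12.4%. Both strands were searched, and a window may hold several motifs. The 31 genes had 34 windows, and a gene counted once if any of its windows matched. The shares over all windows count each window, so the unit differs from that of the members.

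Members with and without the ETS motif or CCAAT had close medians. The median log2 fold change was -0.14 with and -0.13 without the ETS motif, and -0.13 and -0.12 with and without CCAAT. It was -0.06 and -0.13 for the antioxidant response element, whose 5 genes included both negative (Psmb6, -0.33) and positive values (Psme4, 0.15). A motif match is a description of letters and not a shown binding site.

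Other genes of the ubiquitin and proteasome pathway, from lists of its known components, also gave no call by limma after adjustment over all rows. The 3 immune-type beta subunits, which replace the catalytic subunits under interferon, were all lower, with a median log2 fold change of -0.10; Psmb10 was at -0.12 and Psmb8 at -0.10. Of 5 core assembly chaperones 4 were lower (median -0.09), and Pomp, the maturation factor of the core, had 11.68, 11.89 and 11.29 in control arrays 1 to 3, and 11.23, 11.64 and 10.98 in miR-128 arrays 1 to 3, with miR-128 replicate 2 among the controls and a log2 fold change of -0.34 (SE 0.20, adjusted p = 0.821). Psmg4 was at -0.09. Of 6 measured cap-bound partners 3 were lower and 3 higher, among them Sem1, a small lid component, at -0.16 (SE 0.17, adjusted p = 0.942) and the inhibitor Psmf1 at -0.06.

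Ubiquitin shuttles and the segregase Vcp with its cofactors had 3 of 9 members lower and 6 higher. The lowest p belonged to Ddi2, a protease that cleaves and thereby activates Nfe2l1, with log2 values of 9.74, 9.66 and 9.54 in control arrays 1 to 3, and 9.13, 9.20 and 9.37 in miR-128 arrays 1 to 3. The miR-128 arrays were all below the lowest control, and the log2 fold change was -0.41 (SE 0.11, 95% interval -0.66 to -0.15, adjusted p = 0.456). The shuttle Ubqln4 was at 0.16 (SE 0.15). Among the ubiquitin genes, Rps27a, which encodes ubiquitin fused to a ribosomal protein, was at 0.17 (SE 0.11, adjusted p = 0.855). Its group means, 6.46 in controls and 6.63 with miR-128, lay below the median row (7.46). With the mean of the gene's rows the log2 fold change of Rps27a was 0.29 (limma adjusted p = 0.541).

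Of the 10 regulators of proteasome genes 7 were lower and 3 higher, with a median of -0.05. Mafk, a small Maf partner of Nfe2l1 and Nfe2l2, had log2 values of 7.06, 7.23 and 7.07 in control arrays 1 to 3, and 7.32, 7.37 and 7.35 in miR-128 arrays 1 to 3. Its miR-128 arrays were all above the controls, with a log2 fold change of 0.23 (SE 0.10, adjusted p = 0.698). Nfya, a subunit of NF-Y, was at -0.17 (SE 0.12, adjusted p = 0.891). The other NF-Y subunits were Nfyb at -0.20 (SE 0.18) and Nfyc at 0.14 (SE 0.23). Nfe2l1 itself was at -0.05 (SE 0.11, limma adjusted p = 0.988) and Nfe2l2 at -0.05 (SE 0.11). The groups overlapped in all of these except Mafk.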

How the data were processed

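The deposited values are log2 expression values, which the authors computed by RMA with affy (versions not stated), per the submitters' processing notes. The rows are RefSeq transcripts, each summarising a group of probes. How probes were grouped, and on which build, is not stated in the labels. RMA tends to shrink fold changes.

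Row accessions, without versions, were matched to the RefSeq gene table of GRCm38.p6, used for names and promoter sequences. Of 32025 rows 25343 were named, for 20263 genes. Groups came from the sample titles. Rows were tested in R 4.3.3 with limma 3.58.1 (lmFit and eBayes) on all rows and all 6 arrays, unpaired, two-sided, with no filter on low values, adjusted by Benjamini-Hochberg over 32025 rows. The prior had 4.74 degrees of freedom. The procedure was tested on simulated data, in which each row had independent noise of equal size on all arrays. An array that stands apart, as miR-Control replicate 3 does, was not simulated, so that case is not covered. SEs and 95% intervals are limma's, and ± values are SDs over 3 arrays. Symbols were matched whole, so Psmc3ip and Psme3ip1, which are no subunits, stayed out.

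The members and gene lists were chosen with earlier results of these data known. Full statistics are given for the 3 genes of smallest p in each role group and the 2 in each other list, and for Psma8, Psmc5, Psmc6, Psmd11 and Psme1, singled out after their values were seen. Of the genes this names and the cell type markers, 2 are not reported here. Alternatives were other array scalings, array weights, a filter on level, unmoderated statistics, a replicate block, repeated rows left out, the mean of a gene's rows and each array left out.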

Additional observations from a re-analysis of the deposited data

How the results depend on the processing

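Under the alternatives run, 0 proteasome genes reached an adjusted p of 0.05 in limma, and 29 to 35 of the 38 were lower when each array was left out in turn. Over all rows, 4 passed when only rows above the median level were tested and 24 passed under limma's array weights, which gave miR-Control replicate 3 a weight of 0.279. The lowest adjusted p of a member came with those weights, 0.0566 for Psmb3. With each array left out in turn the median log2 fold change was -0.24 to -0.13 for the core and -0.31 to -8.81e-02 for the cap, and core minus cap was -8.84e-02 to -6.93e-03. With array weights the medians were -0.22 and -0.28. In 2 alternatives chosen after seeing the data, core minus cap was -8.42e-02 without Psma8 and Psmb11 and -4.60e-02 without Psmd5, Psmd9 and Psmd10. Of 410 values of single genes under the alternatives that refit the fold change, 387 kept their sign and 23 did not, and the cause was not tested. Unmoderated statistics, the replicate block, the level filter and leaving out repeated rows do not alter a gene's fitted value and are not counted. Signs turned under median centring for Psme3 (-1.43e-02) and Psme1 (-1.77e-02), and under array weights for Psmb11 (0.0165), Psme3 (-0.11), Psme1 (-1.89e-02) and Psma8 (0.0625). With each array left out in turn the ranges that crossed 0 were -0.31 to 0.000868 for Psma6, -0.16 to 0.14 for Psma8, -0.39 to 0.13 for Psmc5, -1.57e-02 to 0.20 for Psmc6, -0.14 to 0.0336 for Psmd5, -0.19 to 0.055 for Psmd9, -0.36 to 0.16 for Psmd10, -2.86e-02 to 0.0978 for Psmd11, -6.82e-02 to 0.057 for Psme1, -5.47e-02 to 0.14 for Psme3 and -0.14 to 0.00378 for Psmf1.

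Same-numbered arrays of the 2 groups were not treated as pairs. Their deviations from the group means correlated at -2.78e-03, 0.17 and 0.0515 for numbers 1 to 3. For miR-Control replicates 2 and 3 the same number was the best match, while miR-Control replicate 1 correlated best with miR-128 replicate 3 (0.19). Correlations this weak cannot decide whether same-numbered arrays shared a batch. With the replicate number as a block, 0 rows passed and Psmb3 had an adjusted p of 0.413. The 3 arrays a group and the unknown signal over background limit what can be seen of differences of this size.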
